A study of Mus musculus with 6 samples.

Results

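miR-26a and miR-26b are the 2 mouse members of the miR-26 family, and they were examined here among the short RNAs held by Argonaute (Ago) proteins in brain. Reads were taken as members where the deposited annotation named them mmu-miR-26a-5p, mmu-miR-26b-5p or mmu-miR-26b-3p. These 3 mature miRNAs were among 782 with any read, and they covered 321 of 65087 different sequences, 248 for miR-26a-5p, 68 for miR-26b-5p and 5 for miR-26b-3p. The study compared 3 WT mice, named in the labels only as WT, with 3 Tau tg mice. Per the study's methods the mice were 3-month-old males on a C57BL/6J background, and the Tau tg mice carried cDNA of a human tau fragment under the Thy 1.2 promoter, which drives expression in neurons. The table held no measure of the transgene, so the genotypes could not be checked. Cortex and hippocampus were combined according to the protocol, while the source label and the study's account of these mice named the hippocampus. All 5 neuronal miRNAs on the list used as a tissue check were above 0 in every sample. They summed to between 150864 and 174239 RPM (reads of a sequence, scaled to library size). The list is of neurons in general, so it cannot tell hippocampus from cortex. In whole tissue a change in the number of cells that use a miRNA and a change in the amount per cell cannot be told apart.

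A miRNA is cut from a hairpin precursor, and 1 arm of the hairpin, here the 5p arm, is usually kept in the RNA-induced silencing complex (RISC) while the other is lost. Bases 2 to 8 of the miRNA, its seed, pair with target mRNAs. The miR-26 hairpins lie inside the CTDSP genes, which encode small phosphatases that work with REST, a repressor of neuronal genes, and Ezh2 is among the well-known targets of the family. In the study each 6mer seed (positions 2 to 7) also carries a viability, the percentage of cells that survived a short RNA with that seed, averaged over 3 mouse cell lines, and lower values mark more toxic seeds.

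The mature sequences of the 3 members, and of the other arms of the miR-26a hairpins, are given first because both the shared seed and the ends of the reads are compared later. The seed is in capitals, and the sequences are from RefSeq.
miR-26a-5p: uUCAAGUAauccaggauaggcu
miR-26b-5p: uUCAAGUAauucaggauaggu
miR-26b-3p: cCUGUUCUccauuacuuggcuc
miR-26a-1-3p: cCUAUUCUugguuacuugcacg
miR-26a-2-3p: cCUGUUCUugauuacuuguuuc
Both 5p members carry the same seed. miR-26b-3p shares its seed with miR-26a-2-3p and not with the 5p members. The 5p members were 22 and 21 nt long in RefSeq, and over the shorter length they differed at 2 positions. Counted from the 5′ end of miR-26a-5p, the first difference was C11U, outside the seed.

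The precursors show where the reads came from. The hairpins are printed with both mature arms in capitals.
Mir26a-1: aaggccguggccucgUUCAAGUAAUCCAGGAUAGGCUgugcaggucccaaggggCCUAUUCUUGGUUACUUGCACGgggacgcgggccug
Mir26a-2: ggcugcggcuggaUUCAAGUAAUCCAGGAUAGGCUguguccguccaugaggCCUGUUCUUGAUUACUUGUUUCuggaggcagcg
Mir26b: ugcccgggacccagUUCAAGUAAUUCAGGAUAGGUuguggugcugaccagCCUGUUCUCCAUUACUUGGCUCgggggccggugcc
On GRCm38, with GENCODE M21 annotation, Mir26a-1 lies on the plus strand at chr9:119031796-119031885 in an intron of Ctdspl. Mir26a-2 lies on the plus strand at chr10:126995530-126995613 inside Ctdsp2. Its mature arms are intronic, and only 1 nt of its hairpin overlaps exons of Ctdsp2 transcripts. Mir26b lies on the plus strand at chr1:74394310-74394394 in an intron of Ctdsp1. Since both miR-26a hairpins give the same 5p sequence, reads of miR-26a-5p cannot be assigned to either locus. After the last base of the miR-26b-5p arm the Mir26b hairpin continues with u, so a read that ends in an additional u is still encoded by the hairpin.

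miR-26a-5p was among the most abundant miRNAs in every brain, and its level did not differ between the groups beyond the spread between mice. It held 39975, 29466 and 36555 RPM in WT 1, 2 and 3. In Tau tg 1, 2 and 3 it held 44894, 46115 and 35616 RPM. WT 2 was lowest, Tau tg 1 and 2 were highest, and Tau tg 3 lay below both WT 1 and WT 3, so the groups overlapped. Its rank among all miRNAs ran from 2 to 5. WT mice averaged 35332 ± 5360 RPM and Tau tg mice 42209 ± 5742 RPM (SD, n = 3 each). The log2 change on the log2(RPM + 1) scale was 0.26 ± 0.32 (SE), with an unadjusted p of 0.436 and an adjusted p of 0.896 by limma with Benjamini-Hochberg adjustment over 689 miRNAs. The 95% interval of that change ran from -0.43 to 0.95. The median log2 change over all 689 miRNAs was 0.25, and relative to it miR-26a-5p stood at 0.01.

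miR-26b-5p was about 20.2 times less abundant and followed the same course. It held 2109, 1445 and 1723 RPM in WT 1, 2 and 3. In Tau tg 1, 2 and 3 it held 2026, 2332 and 1895 RPM. WT 2 was again lowest and Tau tg 2 highest, and WT 1 lay above Tau tg 1 and 3. WT mice averaged 1759 ± 333 RPM and Tau tg mice 2084 ± 225 RPM (SD, n = 3 each). This gave a log2 change of 0.26 ± 0.30 (SE) and an adjusted limma p of 0.896. The interval ran from -0.39 to 0.90. Its rank among all miRNAs ran from 59 to 83.

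The ratio of the 2 5p members was close to constant. miR-26a-5p RPM over miR-26b-5p RPM was 19.0, 20.4 and 21.2 for WT 1, 2 and 3, against 22.2, 19.8 and 18.8 for Tau tg 1, 2 and 3. The group means were 20.2 ± 1.15 and 20.2 ± 1.73 (SD, n = 3 each). On the log2 scale the ratio of miR-26b-5p to miR-26a-5p averaged -4.33 ± 0.083 in WT mice and -4.34 ± 0.122 in Tau tg mice (SD, n = 3 each), and the exact permutation p was 1. The same test was run two-sided on 11 ratio and isoform measures, over the 20 assignments of 6 mice to 2 groups, and with 3 mice against 3 it cannot give a p below 0.1.

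Among the 275 other miRNAs with a mean of at least 100 RPM, the pattern most like that of miR-26a-5p over the 6 samples was that of miR-26b-5p. Likeness was measured as the SD of the log2 ratio over samples, which was 0.0930 for this pair and 0.490 for the median miRNA. miR-23b-3p followed with 0.131 and miR-16-5p with 0.148. For miR-26b-5p, miR-23b-3p was closest with 0.0784, then miR-26a-5p with 0.0930 and miR-16-5p with 0.136, against a median of 0.495. All these values come from the same libraries and share their scaling.

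miR-26b-3p, the arm that is usually discarded, was near the limit of detection. WT 1 held 9.84 RPM of it, and neither WT 2 nor WT 3 had a read. The Tau tg samples 1, 2 and 3 held 10.2, 3.35 and 0.818 RPM. These were 21, 0, 0, 72, 4 and 2 reads, 99 in all, beside 30173 reads of miR-26b-5p. A count of 0 allows up to 3 reads, or 2.03 RPM for WT 2 and 2.75 RPM for WT 3, so absence in these mice was not shown. WT 1 and Tau tg 1 had nearly the same level, and the 2 WT samples without reads were not the only low ones, since Tau tg 3 lay under the floor of WT 2. The fitted log2 change was 1.01 ± 1.33 (SE), with an adjusted limma p of 0.896, and no difference was detectable at this depth.

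The 5 sequences of miR-26b-3p began at the annotated base in each case, but their ends differed between libraries. WT 1 held 19 reads of the form that ends 1 nt early and 2 reads of the mature form. Tau tg 1 held 28 reads of the form that ends 2 nt early, 18 and 15 reads with a single U or A beyond the mature end, 11 reads of the mature form, and none of the form that led in WT 1. The 4 reads of Tau tg 2 all carried the added A. These are counts within single libraries, and copies made by PCR count as reads too.

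The other arms of the miR-26a hairpins were as rare. miR-26a-1-3p held 22 reads and miR-26a-2-3p 50 reads over the 6 libraries, beside 626377 of miR-26a-5p. WT 1, 2 and 3 held 0.936, 2.71 and 0.917 RPM of miR-26a-2-3p, and Tau tg 1, 2 and 3 held 1.99, 10.9 and 6.55 RPM, that is 2, 4, 1, 14, 13 and 16 reads. Tau tg 1 lay below WT 2, so the groups overlapped, and the adjusted limma p was 0.896 for a log2 change of 1.43. For miR-26a-1-3p the log2 change was -0.81, with 18 of its 22 reads in WT 1.

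**Figure D1:**
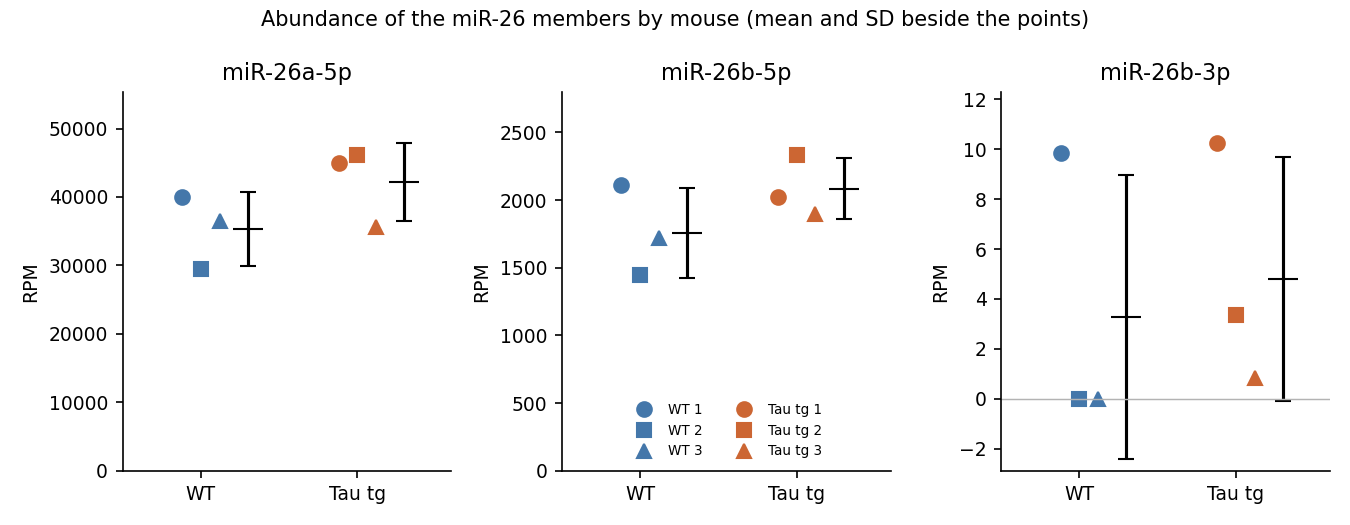
Abundance in RPM (y axis, linear) of miR-26a-5p, miR-26b-5p and miR-26b-3p in each WT and Tau tg mouse, with the group mean and SD as a black bar beside the points. In every panel the groups overlap, WT 2 is lowest for both 5p members, and miR-26b-3p is at 0 in WT 2 and WT 3.

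None of the 3 members passed an unadjusted p of 0.05. Of the 689 miRNAs tested, 25 did (3.63%), 14 higher and 11 lower in Tau tg, and 0 (0%) passed after adjustment, while DESeq2 on the recovered reads called 5, none of them a member. Of 472 miRNAs above 0 in every sample, 9.53% had groups that did not overlap, and neither 5p member was among them. Precision for the abundant members was better than for most miRNAs: 94.2% of miRNAs had a larger SE than miR-26a-5p. Of the 8 miRNAs listed as part of the REST network of neurons (miR-9-5p, miR-9-3p, miR-124-3p, miR-132-3p, miR-212-3p, miR-29a-3p, miR-29b-3p and miR-137-3p), 0 of 8 passed an unadjusted p of 0.05, and their log2 changes ran from -0.36 to 0.53 with a median of 0.05. No marker of oligodendrocytes, leukocytes, endothelium or red blood cells passed either. The summed choroid plexus markers reached 11499 RPM in Tau tg 1 and ran from 2683 to 5987 RPM over the other samples, with overlapping groups, and their part in the miR-26 levels was not tested.

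**Figure D2:**
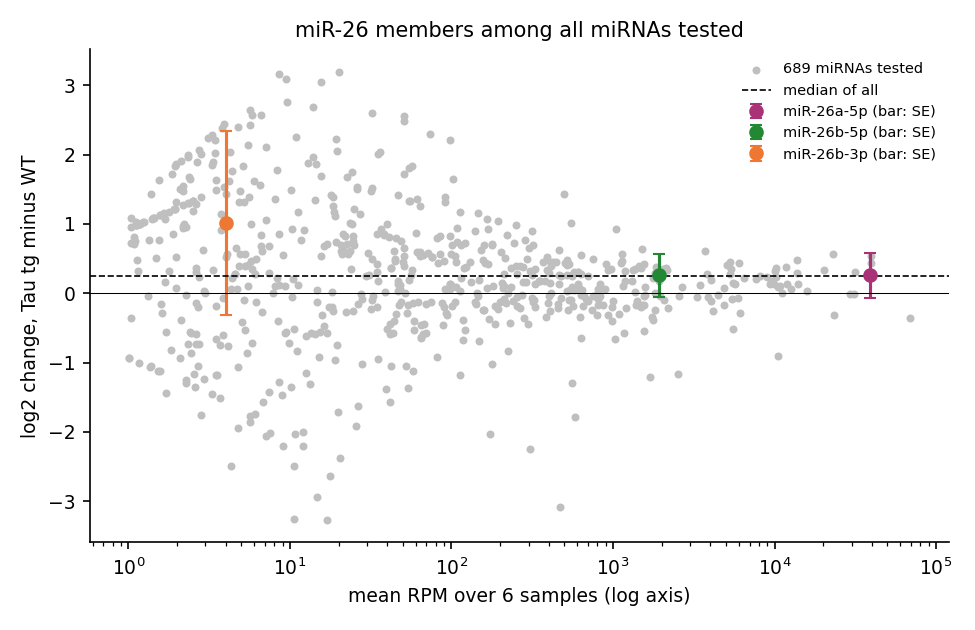
Log2 change from WT to Tau tg (y axis) against mean RPM over 6 samples (x axis, log) for the 689 miRNAs tested, with the 3 members in colour and their SE as bars. Both 5p members lie on the dashed line of the median change (0.25), and the bar of miR-26b-3p spans 0.

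The reads of the 5p members were not a single sequence, and the 2 members differed in where they ended. Of miR-26a-5p, 49.3% of RPM over the 6 samples was the mature 22-nt form. Of miR-26b-5p, only 17.2% was the mature 21-nt form, and 63.1% was a form 1 base longer that the hairpin encodes. The leading forms are printed here, with bases that the hairpin does not encode in capitals.
miR-26a-5p, mature: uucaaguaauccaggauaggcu
miR-26a-5p, 1 nt shorter: uucaaguaauccaggauaggc
miR-26a-5p, 2 nt shorter: uucaaguaauccaggauagg
miR-26a-5p, added U: uucaaguaauccaggauaggcuU
miR-26a-5p, 1 nt shorter with added A: uucaaguaauccaggauaggcA
miR-26b-5p, 1 nt longer: uucaaguaauucaggauagguu
miR-26b-5p, mature: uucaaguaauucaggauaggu
miR-26b-5p, 1 nt longer with added A: uucaaguaauucaggauagguuA
miR-26b-5p, 1 nt longer with added U: uucaaguaauucaggauagguuU
miR-26b-5p, 1 nt shorter: uucaaguaauucaggauagg
The shorter forms made up 22.4% (1 nt) and 11.6% (2 nt) of miR-26a-5p. The forms with an added U or A made up 4.21% and 2.97%. For miR-26b-5p the longer form with an A held 4.79%, that with a U 4.69%, and the form 1 nt shorter than the mature one 2.55%. Both members thus ended most often at 22 nt, which is the annotated end for miR-26a-5p and 1 nt past it for miR-26b-5p.

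**Figure D3:**
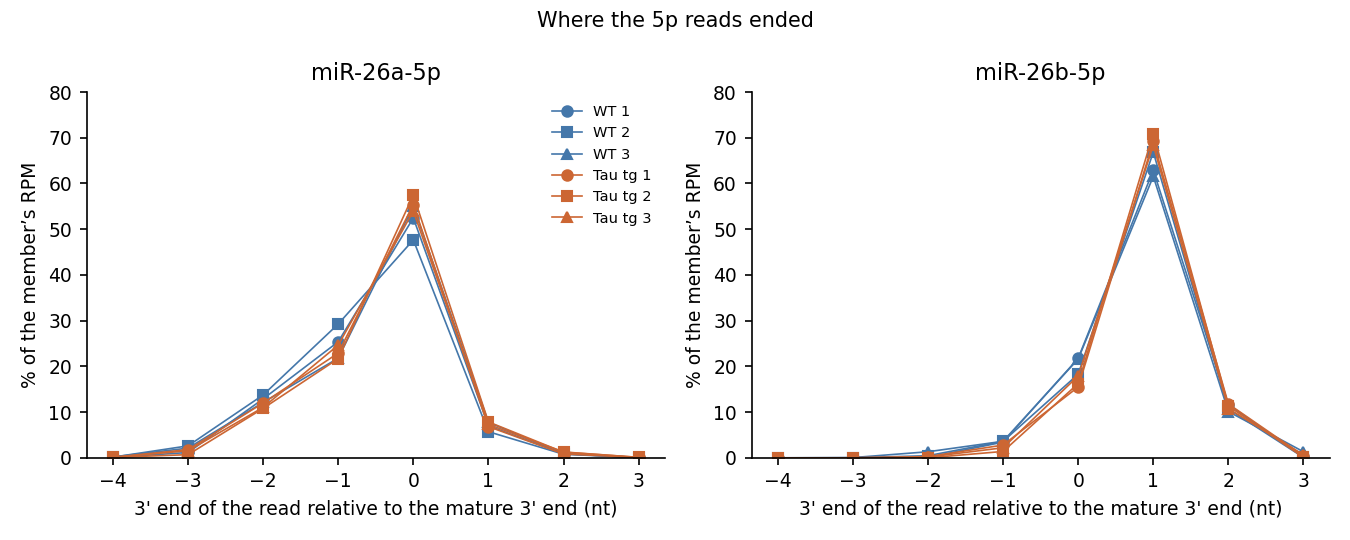
Share of a member's RPM (y axis, %) by the position of the read's 3′ end relative to the RefSeq mature end (x axis, nt) for miR-26a-5p and miR-26b-5p, 1 line per mouse. miR-26a-5p peaks at 0 with a shoulder of shorter reads, whereas miR-26b-5p peaks at 1 nt past the mature end in all 6 mice.

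For miR-26b-5p the reads were slightly longer in the Tau tg mice. WT 1, 2 and 3 had mean read lengths of 21.81, 21.82 and 21.79 nt, against 21.90, 21.92 and 21.88 nt for Tau tg 1, 2 and 3, so every Tau tg mouse was above every WT mouse. The means were 21.81 ± 0.016 nt and 21.90 ± 0.020 nt (SD, n = 3 each), a difference of 0.0892 nt. The exact permutation p was 0.1, which no result of this design can go below, and the adjusted p over the 11 measures was 0.367. The size and direction held in 3 of 3 Tau tg mice, but the result did not pass the correction.

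The share of the mature 21-nt form moved the other way. It made up 20.8%, 16.8% and 20.6% of miR-26b-5p in the WT mice against 14.8%, 13.9% and 16.8% in the Tau tg mice, in the order 1, 2 and 3. The means were 19.4% ± 2.25 and 15.2% ± 1.44 (SD, n = 3 each). The exact permutation p was again 0.1, adjusted 0.367. WT 2 and Tau tg 3 were apart by less than their counting error, since their 95% Wilson intervals were 15.3% to 18.5% (2133 reads of the member) and 15.7% to 17.9% (4631 reads). With sequences under a mean of 1 RPM left out, the exact p was 0.2. Reads that ended before the mature end were also fewer, at 3.55%, 4.08% and 5.01% for the WT mice against 3.07%, 1.40% and 2.38% for the Tau tg mice, with the same p and adjusted p. Reads of 22 nt made up 62.8% ± 3.40 of miR-26b-5p in WT and 68.8% ± 1.96 in Tau tg (SD, n = 3 each). These 4 values describe 1 shift of the 3′ end and are not independent of each other.

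miR-26a-5p had a difference in mean length of about the same size, with overlapping groups. Its mean read length was 21.54, 21.42 and 21.56 nt for WT 1, 2 and 3, against 21.55, 21.64 and 21.58 nt for Tau tg 1, 2 and 3. Tau tg 1 lay just below WT 3, and the exact permutation p was 0.2. The mature form averaged 47.0% ± 3.71 among WT mice and 50.9% ± 1.83 among Tau tg mice (SD, n = 3 each, exact permutation p = 0.2). Reads that ended early held 40.5% ± 4.85 and 35.8% ± 2.20 (SD, n = 3 each), with an exact permutation p of 0.3. WT 2, at 45.8%, held the most early ends, and it was also the library with the fewest miR-26a-5p RPM.

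A difference of this kind was not rare among miRNAs. Of 276 miRNAs with a mean of at least 100 RPM, 27 (9.78%) had mean lengths whose groups did not overlap, 15 longer and 12 shorter in Tau tg. The median difference in length was 0.0059 nt, and 53.3% of the 276 were longer in Tau tg, so there was no shift common to all. In size, in either direction, 122 of the 276 had a larger difference than miR-26b-5p and 127 a larger one than miR-26a-5p. In the direction of longer reads these were 58 and 62.

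**Figure D4:**
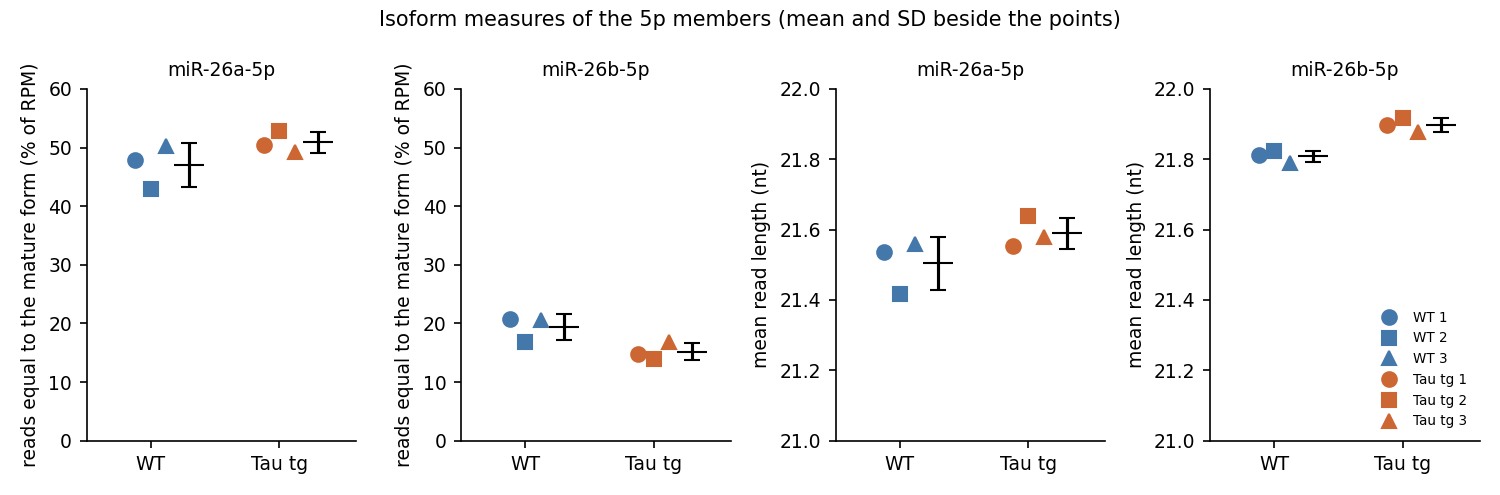
Share of reads equal to the mature form (left panels, % of RPM, axis from 0) and mean read length (right panels, nt, axis from 21 to 22) for miR-26a-5p and miR-26b-5p in each mouse, with mean and SD as black bars. The groups separate for miR-26b-5p in both measures, narrowly for the share (16.8% in both WT 2 and Tau tg 3), and overlap for miR-26a-5p.

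Tails, meaning end bases that the hairpin does not encode, took up about the same share in both groups. They held 12.9% ± 0.412 of miR-26a-5p in WT and 13.0% ± 0.479 in Tau tg, and 14.3% ± 0.557 and 14.5% ± 0.657 of miR-26b-5p (SD, n = 3 each), with exact permutation p of 1 and 0.7. Tails of A only held 6.45% and 6.37% of miR-26a-5p in the group means, and tails of U only 5.02% in each. For miR-26b-5p the A tails held 6.81% ± 1.16 and 7.68% ± 0.683, and the U tails 4.96% ± 1.37 and 4.69% ± 0.831 (SD, n = 3 each). Substituted end bases count as tails too, and whether a base was added after cutting was not tested. A U added to the mature form of miR-26b-5p equals the next hairpin base, so it was counted as encoded. The tail share of miR-26b-5p thus leaves out such additions.

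Of the 321 member sequences, 196 reached a mean of 1 RPM and were tested, and they held 99.9% of the members' RPM. Only 1 had an unadjusted p under 0.05, beside 2.23% of all 36070 sequences tested, and 0 passed after adjustment by limma, edgeR or DESeq2. That sequence was miR-26a-5p with AU added past the mature end (added bases in capitals).
miR-26a-5p, added AU: uucaaguaauccaggauaggcuAU
WT 1, 2 and 3 held 100, 70.5 and 77.1 RPM of it, and Tau tg 1, 2 and 3 held 133, 245 and 230 RPM. Every Tau tg mouse was above every WT mouse. The log2 change was 1.25 ± 0.63 (SE), with an unadjusted limma p of 0.0463 and an adjusted p of 0.584. Its unadjusted p was no longer under 0.05 with a pseudocount of 5, with median-of-ratios scaling or quantile normalization, with edgeR or DESeq2, or without Tau tg 2 or Tau tg 3. The form made up 0.368% of miR-26a-5p.

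Of 97 tested member sequences above 0 in every sample, 12 (12.4%) had groups that did not overlap, 10 of them higher in Tau tg, beside 9.22% of all 5704 such sequences. These were 10 of 84 for miR-26a-5p and 2 of 13 for miR-26b-5p. Reads of a member share its level, and the mean RPM of both 5p members was higher in Tau tg, so their directions are not independent. After the form with AU, the miR-26a-5p read with the largest difference in mean RPM among those higher in Tau tg was the one that runs 1 hairpin base past the mature end. The 1 read of the 10 that was lower carried a single A in place of the last bases.
miR-26a-5p, 1 nt longer: uucaaguaauccaggauaggcug
miR-26a-5p, 2 nt shorter with added A: uucaaguaauccaggauaggA
Of the longer form WT 1, 2 and 3 held 23.0, 16.9 and 34.9 RPM, and Tau tg 1, 2 and 3 held 53.2, 75.3 and 58.9 RPM, with a log2 change of 1.34 ± 0.77 (SE). Of the shorter form the WT mice held 249, 489 and 248 RPM and the Tau tg mice 195, 232 and 241 RPM, with a log2 change of -0.49 ± 0.56 (SE). The gap between WT 3 and Tau tg 3 was small and the high mean of WT rested on WT 2. Both had an adjusted limma p of 0.584. For miR-26b-5p the longer form with an added A reached 84.3, 48.1 and 88.1 RPM among WT mice against 95.3, 141 and 95.7 RPM among Tau tg mice. The 20-nt form reached 57.1, 52.2 and 60.5 RPM among WT mice against 52.1, 30.9 and 41.3 RPM among Tau tg mice, so WT 2 and Tau tg 1 differed by under 0.1 RPM.

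The start of the reads, which sets the seed, was nearly fixed. Reads of miR-26a-5p with another start averaged 1.61% ± 0.618 among WT mice and 1.10% ± 0.158 among Tau tg mice (SD, n = 3 each). The exact permutation p was 0.2, and WT 2 was highest at 2.30%. For miR-26b-5p they held 1.65% ± 0.624 and 1.41% ± 0.456 (SD, n = 3 each), with an exact permutation p of 0.8. The seed UCAAGU therefore covered 98.1% ± 0.604 of miR-26a-5p in WT and 98.7% ± 0.121 in Tau tg (SD, n = 3 each). The next, CAAGUA, which arises when the first base is missing, covered 0.659% and 0.488% in the group means.

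Since the 5p members are so alike, reads that carry the base of 1 member at position 11 and the end of the other were looked up. They are shown because they limit how far single reads can be assigned (end bases that the hairpin of the named member does not encode in capitals).
named miR-26b-5p: uucaaguaauucaggauaggCU
named miR-26a-5p: uucaaguaauccaggauaggU
The first equals the 22-nt form of miR-26a-5p with C11U and had a mean of 17.6 RPM, which was 0.0942% of that form and 0.916% of miR-26b-5p. Among the 44 single substitutions of that form found at positions 2 to 19, it ranked 8, and the median was 0.0267%. That median covers all kinds of base change. Of the 3 C-to-U changes at these positions, C12U stood at 0.121%, C11U at 0.0942% and C3U at 0.0858%. In the other direction the U11C form of the 22-nt miR-26b-5p read reached 1.03% ± 0.401 (SD over 6 samples) of that read, and it was named miR-26a-5p. The same sequence, with a mean of 12.3 RPM, is also C21U of the 22-nt form of miR-26a-5p. It was 0.0651% of that far more abundant form, so the 2 directions are not compared by these percentages. The second read shown had a mean of 138 RPM, or 0.356% of miR-26a-5p. Whether these are sequencing errors was not tested. Assigning each read by its base at this position moved 5 sequences, and the direction of all 11 measures stayed as before. Their exact permutation p cannot go below 0.1, so no assignment could have brought it under 0.05.

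Both 5p members supply the seed UCAAGU, whose viability was 43% in the deposited table. WT 1, 2 and 3 held 42048, 30609 and 38120 RPM of the seed, against 46798, 48288 and 37488 RPM for Tau tg 1, 2 and 3. Tau tg 3 was below both WT 1 and WT 3, so the groups overlapped, and the log2 change was 0.26 ± 0.38 (SE) with an adjusted limma p of 0.992. It was 0.53 with median-of-ratios scaling and with DESeq2, 0.61 with edgeR, 0.12 with quantile normalization and 0.13 without WT 2, none of them past the threshold. Where an alternative rescaled the data, it did so over all seeds. Over its own alternatives, rescaled over miRNAs, miR-26a-5p reached a log2 change of at most 0.38. The members made up between 98.5% and 98.9% of the seed in every sample. Reads that map to miR-26 hairpins but carried no mature name made up 0.910% to 1.04% of it. The seed CUGUUC of miR-26b-3p, with a viability of 53%, held 22.5, 104 and 26.6 RPM among WT 1, 2 and 3, against 16.4, 25.9 and 32.7 RPM for Tau tg 1, 2 and 3. The member supplied between 0% and 62.6% of it, and the high value of WT 2 contained no read of miR-26b-3p. The log2 change of this seed was -0.70 ± 0.88 (SE), and -0.02 without WT 2.

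The share of the members among reads whose seed viability is low was computed with a limit of 50%, which is not a limit set by the study. Of the RPM under 50% viability they held 18.3%, 12.8% and 16.1% for WT 1, 2 and 3, against 18.5%, 19.7% and 15.2% for Tau tg 1, 2 and 3. Tau tg 3 was below WT 1 and WT 3. Group means were 15.7% ± 2.78 and 17.8% ± 2.32 (SD, n = 3 each), a difference smaller than either SD. With a limit of 40%, added after seeing the data, the members held at most 0.00086% of the RPM under it, since UCAAGU lies at 43%. Among 1237 seeds under 50% viability UCAAGU ranked 1 in 4 samples and 2 in WT 2 and WT 3. The members held 3.95% ± 0.582 of all RPM in WT and 4.57% ± 0.602 in Tau tg (SD, n = 3 each). Of all other reads, 21.7% ± 1.33 in WT and 21.8% ± 0.503 in Tau tg (SD, n = 3 each) had a seed under 50% viability. The weighted mean viability of the members themselves was 43.5% ± 0.177 and 43.4% ± 0.051 (SD, n = 3 each).

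**Figure D5:**
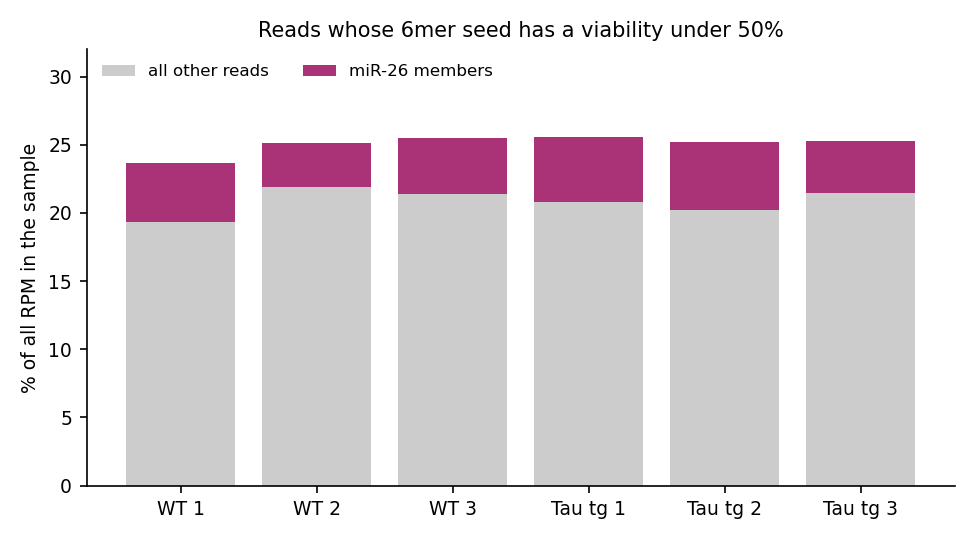
Share of all RPM whose 6mer seed has a viability under 50% (y axis, %, from 0) in each mouse, with the part held by the miR-26 members on top and all other reads in grey. The members' part of the bar is between 12.8% (WT 2) and 19.7% (Tau tg 2), with overlapping groups.

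Depth set the precision of these values. Recovered reads ran from 998248 in WT 3 to 6879551 in Tau tg 1, so 3 reads were worth between 0.427 and 2.75 RPM. miR-26a-5p rested on 39850 to 315510 reads per sample, and its share of the reads of WT 2, 3.14%, had a 95% Wilson interval of 3.11% to 3.16%. miR-26b-5p rested on 1878 to 14239 reads. These intervals and floors reflect counting alone and leave out any duplication by PCR. For miR-26a-5p the spread between mice was far larger than these intervals. For miR-26b-5p it was larger by less, with shares from 0.154% of reads in WT 2 to 0.242% in Tau tg 2. The 95% Wilson interval of Tau tg 2 was 0.233% to 0.251%.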

How the data were processed

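Ago-bound short RNAs were measured in 3 WT and 3 Tau tg mouse brains, with groups and replicate numbers read from the titles. In the protocol that the study describes, Ago proteins were pulled down with a GW182-derived peptide, the bound RNA was ligated to adapters and size-selected, and libraries were sequenced on an Illumina instrument. The authors trimmed the reads (Trim Galore in the submitters' processing notes), compiled unique sequences with the SPOROS pipeline, removed rare reads, annotated the rest by BLAST and removed artificial sequences. Each deposited value is in RPM, read numbers that the authors scaled to library size. A deposited viability column gives each 6mer seed a percent, averaged over 3 mouse cell lines. A deposited total column was not used. A legend of the study gives more samples per group than its methods and the labels.

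Every value was a whole multiple of 1 read (100%, within 0.1 read plus rounding), so reads were recovered, 998248 to 6879551 per sample, and depth was known. RPM were summed per miRNA name, and miRNAs, sequences and 6mer seeds were tested over the whole table with limma 3.58.1 (trend) on log2(RPM + 1), leaving out rows whose mean was under 1 RPM, with Benjamini-Hochberg adjustment. This scale understates changes of low rows. Low values are incomplete, because rare reads had been removed. Each member read was placed on its RefSeq hairpin (GRCm38), and bases past the longest match, up to 3 nt, counted as a tail. Ratio and isoform measures were compared with exact two-sided permutation tests; 6 of the 17 planned measures, those of miR-26b-3p, could not be computed because WT 2 and WT 3 held no read. Named reads were the 5 most abundant of each member, the largest changes in each direction without group overlap, and reads with the base of one 5p member and the end of the other. Of these, 2 sequences with at most 5 reads in any library were not tested and are not described.

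The members and lists were chosen with earlier results of these data known. Nothing says that samples came from separate extractions, so p-values measure the spread between these samples. The tests were repeated with pseudocounts of 0.1 and 5, without the filter or with one of 10 RPM, after quantile normalization or median-of-ratios scaling, on recovered reads with DESeq2 1.42.0 and edgeR 4.0.16, with a replicate block and without each sample. For the members the changes were reads of 18 to 25 nt, only reads that match the mature start over 18 nt, assignment by the differing base, and the most abundant read as reference. Adding unnamed reads of the miR-26 hairpins and a viability limit of 40% were chosen after seeing the data. Simulated data served to test the edgeR and limma code. Software was SciPy 1.17.1, pandas 2.3.3 and NumPy 2.4.6 under Python 3.11.15, with Matplotlib 3.10.9 for plots, and R 4.3.3.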

Additional observations from a re-analysis of the deposited data

How the results depend on the processing

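Of 50 values of the members' log2 changes under alternatives, 49 kept their direction and their side of the threshold. The exception was miR-26a-5p under quantile normalization, at -0.026. Over the alternatives miR-26a-5p ran from -0.026 to 0.38, miR-26b-5p from 0.09 to 0.40 and miR-26b-3p, which the filter of 10 RPM removed, from 0.33 to 2.79. The lowest adjusted p was 0.757, 0.738 and 0.681. All 30 seed values kept theirs, while their size ran from 0.12 to 0.61 for UCAAGU and from -1.10 to -0.022 for CUGUUC. The median change of all miRNAs was 0.09 under median-of-ratios scaling and 0.06 under quantile normalization, against 0.25. The count of miRNAs with an unadjusted p under 0.05 was 25, and ran from 18 to 50 with 1 sample left out, the latter without WT 1. After adjustment it was 0, but 5 with DESeq2, and 0 to 1 with 1 sample left out, the latter without Tau tg 1. The count of member reads with an unadjusted p under 0.05 was 1. It was 3 with a pseudocount of 0.1, 0 with a pseudocount of 5, under both other scalings and with edgeR and DESeq2, and 0 to 3 with 1 sample left out (3 without WT 1, 0 without Tau tg 2 or Tau tg 3). The cause of these moves was not tested.

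Single reads turned only where their change was near 0. The 21-nt read of miR-26a-5p stood at -0.036 under quantile normalization. Its 20-nt read stood at -0.076, -0.011 and -0.087 under median-of-ratios scaling, quantile normalization and DESeq2, and between -0.011 and 0.21 with 1 sample left out. With 1 sample left out the 21-nt read of miR-26b-5p ran from -0.33 to 0.096. The longer miR-26b-5p read with an added U stood at -2.9e-05 with DESeq2 and ran from -0.054 to 0.41 with 1 sample left out. The read with the base of miR-26b-5p and the end of miR-26a-5p stood at -0.028 under median-of-ratios scaling and -0.057 with DESeq2, and ran from -0.042 to 0.28 with 1 sample left out. The share of the reference form of miR-26b-5p turned to a rise of 5.51 percentage points (exact p of 0.1) when its most abundant 22-nt read replaced the mature sequence, because the 22-nt form then is the reference. With 1 sample left out, the log2 ratio of miR-26b-5p to miR-26a-5p differed by -0.054 to 0.065, the tail share of miR-26a-5p by -0.062 to 0.389 percentage points, that of miR-26b-5p by -0.059 to 0.596, and the share of miR-26b-5p with another start by -0.577 to 0.041. The difference in mean length of miR-26b-5p ran from 0.0796 to 0.0992 nt, and the exact p was then 0.2, the smallest that 2 samples against 3 allow. The members' difference in the share of reads under 50% viability, 2.08 percentage points, was 0.603 without WT 2.

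Same-numbered mice did not deviate together, with correlations of -0.0020, -0.069 and 0.041 over miRNAs, so the numbers were not taken as pairs. With a replicate block 22 miRNAs had an unadjusted p under 0.05, against 25 without it, the count after adjustment stayed at 0, and the adjusted p of the members was 0.879. Depth limits miR-26b-3p most, with at most 4 reads in 4 of the 6 libraries.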
